A study of Mus musculus with 14 samples.

Results

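Ppp1r10 encodes PNUTS, a nuclear regulatory subunit of protein phosphatase 1 (PP1), and it is described here with the genes of the complex that PNUTS builds: Wdr82, Tox4 and the PP1 catalytic subunits Ppp1ca, Ppp1cb and Ppp1cc. These are 6 of the 45802 features in the table, and all 6 passed the filter on low values, which left 10877 genes. Ppp1r10 was chosen by its log2 signal, which was higher with intact than with protease-cleaved peptides in these libraries, and the 5 partners were taken by name as the known members of its complex. The level of Ppp1r10 in the libraries that chose it is therefore a description with no test.

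The cells were primary cortical neuron cultures from wild-type C57BL/6 mice, used after 12 days in vitro and treated for 1 h, and ribosome-depleted total RNA was sequenced. Controls received 1% DMSO (2 libraries, numbered replicates 2 and 3, with no control replicate 1 in the table). Each of the other 4 groups had 3 libraries and was given 20 µM bicuculline, which blocks GABA-A receptors and so raises network activity, NMP peptides at 4% by volume, the same amount of NMP peptides after cleavage by PK (proteinase K), or NMP peptides at 4% with 100 µM APV, an NMDA receptor antagonist. NMP stands for the neuronal membrane proteasome, a proteasome at the plasma membrane of neurons that releases peptides to the outside. The labels give DMSO for the control group only, and a group with APV alone was not analysed here. All groups share the strain and the genotype, the age of the mice is not given, and the labels call the libraries replicates without naming the unit of replication, so every p-value reflects the spread among these libraries, which may be technical.

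PP1 removes phosphate from serine and threonine residues, and its catalytic subunits gain their targets from the regulatory subunits that bind them. PNUTS holds PP1 in the nucleus together with the DNA-binding protein TOX4 and the WD-repeat protein WDR82, and this complex acts on the tail of RNA polymerase II and on the elongation factor SPT5, which slows the polymerase at gene ends. WDR82 also serves the SET1 histone methyltransferases, and in neurons PP1 is best known for its part in synaptic depression and memory.

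The promoter windows of Ppp1r10 and Wdr82 are shown because Ppp1r10 is the one of the 6 whose level spanned the widest range between groups and Wdr82 is the partner with a full cAMP response element (CRE) in its window. Each window runs from 250 bases before to 50 after a RefSeq start on GRCm38.p6, on the plus strand, at chr17:35916946-35917245 and chr17:35919022-35919321 for Ppp1r10 and at chr9:106170679-106170978 for Wdr82. Capitals mark matches to TGACGTCA (the CRE), TGACG (its 5-base core, also found inside the CRE), TGANTCA (AP-1) or TATAAA on either strand.
Ppp1r10 first window: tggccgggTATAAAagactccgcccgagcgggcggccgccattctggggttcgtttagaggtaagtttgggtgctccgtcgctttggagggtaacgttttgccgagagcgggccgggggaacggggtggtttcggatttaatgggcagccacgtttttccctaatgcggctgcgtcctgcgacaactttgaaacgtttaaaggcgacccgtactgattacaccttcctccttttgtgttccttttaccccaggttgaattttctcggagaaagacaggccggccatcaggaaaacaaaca
Ppp1r10 second window: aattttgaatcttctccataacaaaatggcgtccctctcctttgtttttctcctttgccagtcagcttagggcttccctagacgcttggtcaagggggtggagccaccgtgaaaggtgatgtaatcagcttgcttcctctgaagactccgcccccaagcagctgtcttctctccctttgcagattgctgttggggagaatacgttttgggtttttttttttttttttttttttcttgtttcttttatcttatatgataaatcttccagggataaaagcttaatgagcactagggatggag
Wdr82: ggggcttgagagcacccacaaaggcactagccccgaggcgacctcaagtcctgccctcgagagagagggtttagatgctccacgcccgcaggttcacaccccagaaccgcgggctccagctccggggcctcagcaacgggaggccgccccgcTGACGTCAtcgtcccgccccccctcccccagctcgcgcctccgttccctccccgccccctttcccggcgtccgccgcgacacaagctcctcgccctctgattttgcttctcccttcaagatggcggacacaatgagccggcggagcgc
The first Ppp1r10 window holds TATAAA at position -242 relative to its start, near the far edge of the window. Anywhere in the window, 13.6% of the 32851 windows in the table hold it. The second Ppp1r10 window holds none of the marked motifs. The Wdr82 window holds TGACGTCA, found in 1.79% of windows. TGACG occurs in the Tox4 and Ppp1cb windows and in 20.8% of all windows, Ppp1cc has none of the marked motifs, and TGANTCA was found in 0 of the 6 windows of the 5 members with an entry, against 7.81% of all windows. Both Ppp1r10 windows lie downstream of the annotated 5′ end of the gene, which spans 35916512 to 35932283 on chromosome 17. A match describes the letters and is not a measured binding site.

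Ppp1r10 was highest with NMP peptides, with or without APV, and lowest in DMSO and with PK-cleaved peptides. Values are log2 signals as deposited, quantile normalised so that all libraries share one distribution, and their read depth is unknown. The NMP peptide libraries read 3.59, 3.64 and 3.62, and those with APV added read 3.51, 3.51 and 3.55. The bicuculline libraries read 3.41, 3.28 and 3.33. The PK-cleaved libraries read 3.16, 3.27 and 3.24 and the DMSO libraries 3.22 and 3.09. All 6 libraries that received intact NMP peptides lay above all others, and PK-cleaved peptides and DMSO were the single pair of groups whose libraries overlapped.

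**Figure D1:**
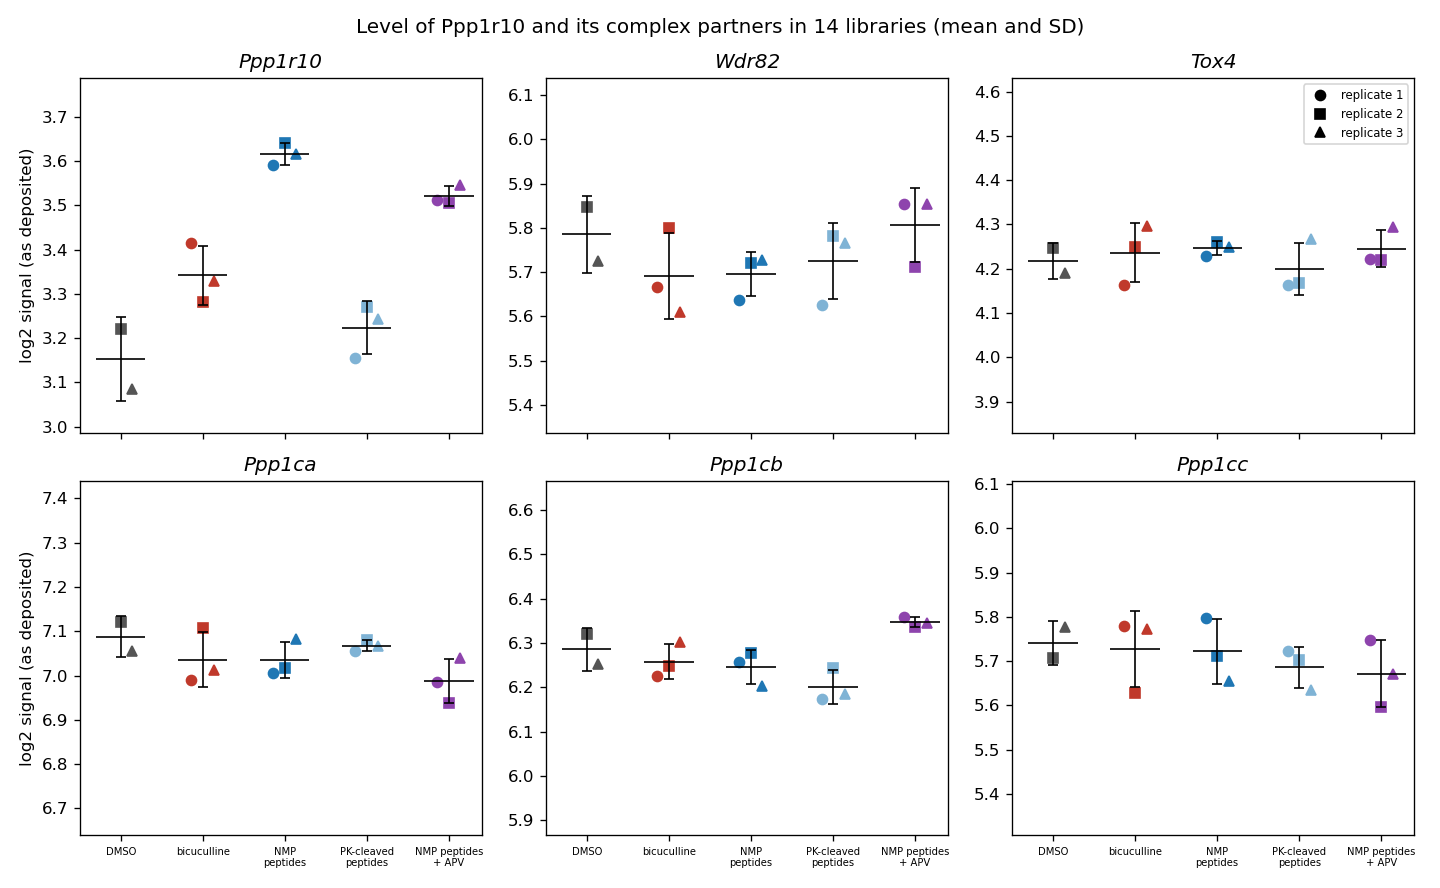
Deposited log2 signal of each of the 6 genes (vertical axis, the same width in every panel) in the 14 libraries by group; points are libraries, shaped by replicate number, horizontal lines are group means and bars are SD. Ppp1r10 runs from 3.09 to 3.64, with both groups given intact peptides at the top, while the partners stay within narrower ranges.

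Group means of Ppp1r10 were 3.62 ± 0.02 (SD, n = 3) with NMP peptides, 3.52 ± 0.02 (SD, n = 3) with APV added, 3.34 ± 0.07 (SD, n = 3) with bicuculline, 3.22 ± 0.06 (SD, n = 3) with PK-cleaved peptides and 3.15 ± 0.10 (SD, n = 2) in DMSO. Neighbours in this order did not overlap, as for 21.8% of all genes between NMP peptides without and with APV, 25.6% between APV and bicuculline and 6.62% between bicuculline and PK-cleaved peptides, down to the last pair, PK-cleaved peptides and DMSO, which overlapped. NMP peptides lay 0.10 (SE 0.07) above NMP peptides plus APV on the log2 scale, and bicuculline 0.12 (SE 0.07) above PK-cleaved peptides. PK-cleaved peptides lay 0.07 (SE 0.07) above DMSO, within the spread of the libraries. In bulk RNA, fewer cells of a type and less RNA per cell cannot be told apart.

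Ppp1r10 was 0.39 (SE 0.07) higher with NMP peptides than with PK-cleaved peptides, the comparison on which it was chosen. Comparisons that use either of those groups are likewise a description, and NMP peptides lay 0.46 (SE 0.07) above DMSO. With the replicate number as a block, which pairs the libraries of NMP peptides and PK-cleaved peptides, the SE was 0.07. The difference stays 0.39 by construction there, since both groups have the same replicate numbers. Over all genes, 0.0827% were called in that comparison and 5.21% had libraries that did not overlap, and against DMSO the shares were 0.0184% and 17.4%. Against PK-cleaved peptides, NMP peptides plus APV was higher by 0.30 (SE 0.07), and bicuculline minus NMP peptides was -0.27 (SE 0.07), where 4.7% of genes did not overlap.

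The 3 comparisons that use neither NMP peptides alone nor PK-cleaved peptides were tested with limma across all 10877 genes, with Benjamini-Hochberg adjustment. Ppp1r10 rose with NMP peptides plus APV against DMSO, by 0.37 on the log2 scale (SE 0.07, 95% interval 0.21 to 0.53) or 1.29-fold, with limma's adjusted p = 0.0401. It was higher in 3 of 3 libraries than in both controls, and 0.625% of all genes were called in this comparison, while 29.8% had libraries that did not overlap. Against DMSO, bicuculline gave 0.19 (SE 0.07, 95% interval 0.03 to 0.35), which did not pass limma's test (adjusted p = 0.996). There 0.469% of genes were called and 17.8% did not overlap. Between bicuculline and NMP peptides plus APV the difference was -0.18 (SE 0.07, 95% interval -0.32 to -0.04) and did not pass limma's test (adjusted p = 0.171), where 3.33% of genes were called and 25.6% did not overlap. These comparisons share control or treated libraries with those above and with each other. Their spread was estimated from all 14 libraries, including those that chose Ppp1r10, so the tests are not free of that choice. The members were also chosen with earlier results of these data known, which may include these comparisons.

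The rise with NMP peptides plus APV was near the threshold. It was not called with the replicate number as a block (0.37, limma's adjusted p = 0.095), when only the compared groups were fitted (0.37, adjusted p = 0.155) or when the 4 libraries with the highest Gfap were left out (0.44, adjusted p = 0.215). Of the 14 fits that left out 1 library, 11 lost the call, and over all 14 the differences were 0.30 to 0.44 and the adjusted p 0.0317 to 0.293. The call was kept without bicuculline replicate 2, NMP peptides replicate 1 or PK-cleaved NMP peptides replicate 1, all outside the comparison. Leaving out such a library can change the spread and the adjustment but not the difference.

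The summed levels of some cell type markers also differed in this comparison, although limma called 0 of 10 astrocyte and 0 of 9 inhibitory neuron markers, with an unadjusted p under 0.05 for 3 of each. The summed level of the 10 astrocyte markers was 660 to 701 in the libraries with APV against 583 to 624 in DMSO and 556 to 642 in the other groups. Single astrocyte markers ran from -0.69 for Gfap, lower with APV, to 0.32 for Slc1a2 against DMSO. That of the 9 inhibitory neuron markers was 471 to 493 with APV against 514 to 578 in DMSO, with single markers from -0.53 to 0.11. In the other comparison, bicuculline against NMP peptides plus APV, Gad1 and Dlx5 were called higher (0.45 and 0.42, adjusted p = 0.0449 and 0.0354 by limma). The part of these markers in the Ppp1r10 differences was not tested. Neuron markers were high in every library (6 of 6 tested, summed level 1673 to 2055), and microglia markers were near 0 throughout (0 of 10 tested, summed level 1.17 to 1.92).

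The order of Ppp1r10 over the groups was not that of Fos, the immediate-early transcription factor used as a reference for neuronal activity. Fos read 7.80, 7.28 and 8.02 with bicuculline, 6.31, 6.56 and 5.71 with NMP peptides, and 4.88, 5.01 and 4.46 with NMP peptides plus APV. It read 4.57, 4.29 and 3.90 with PK-cleaved peptides and 4.03 and 4.61 in DMSO. Bicuculline, which gave the highest Fos, gave a middle level of Ppp1r10, and NMP peptides plus APV, with Fos at 4.46 to 5.01, gave the second highest. All 7 reference genes of activity were called higher with bicuculline than in DMSO. With NMP peptides plus APV against DMSO, 0 of 7 were called in either direction, and 2 had an unadjusted p under 0.05. Npas4, an activity-induced transcription factor of neurons, had group means of 5.64 with bicuculline, 3.39 with NMP peptides and 0.04 with APV added. Its libraries read 0.81 and 1.81 in DMSO and 1.21, 0.82 and 0.77 with PK-cleaved peptides. Differences of the 7 genes between NMP peptides plus APV and DMSO ran from -1.27 for Npas4, lower with APV, to 0.75, with a median of 0.46. Across the 14 libraries Ppp1r10 correlated with Fos at r = 0.30 and with Npas4, the lowest of the 7, at r = 0.09. It gave 0.34 with Fosb, 0.33 with Nr4a1, 0.32 with Egr1, 0.31 with Junb and 0.13 with Arc. Of all genes compared, 6.69% had a higher r than Fosb, 9.33% than Fos and 28.6% than Npas4. Without the 2 libraries farthest from the median of Ppp1r10, r was 0.18 for Fos, -0.01 for Npas4 and 0.25 for Fosb. These values are a description because the libraries fall into groups.

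**Figure D2:**
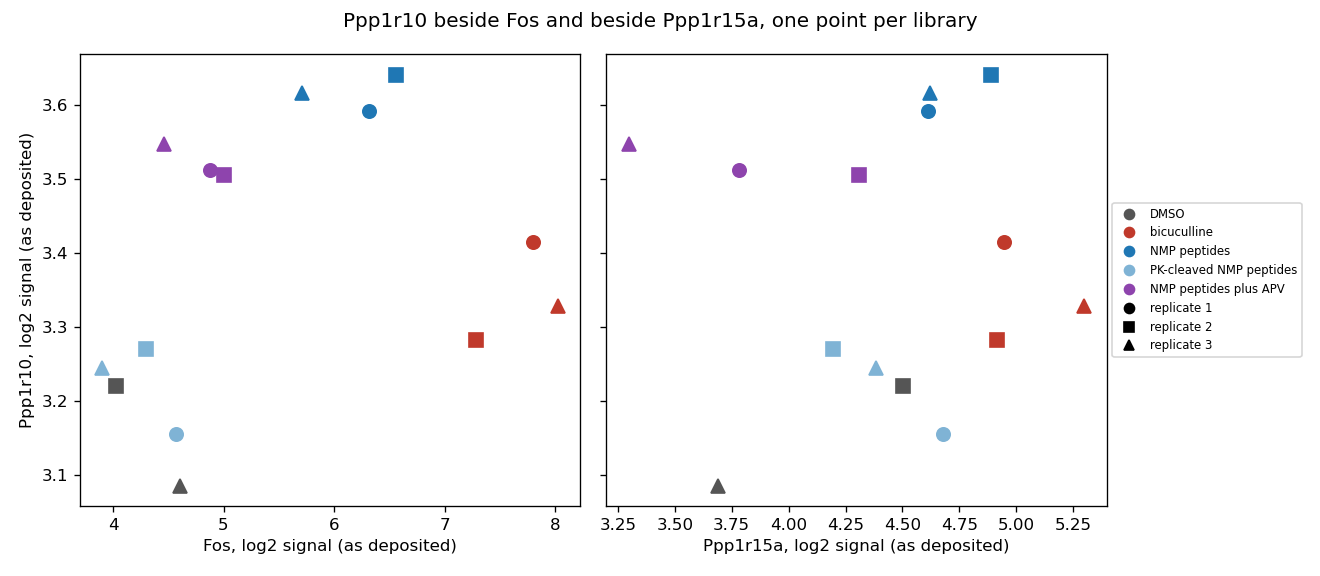
Ppp1r10 (vertical axis) against Fos (left) and against Ppp1r15a (right), all as deposited log2 signals, 1 point per library coloured by group and shaped by replicate number. The bicuculline libraries reach the highest Fos, 7.28 to 8.02, at Ppp1r10 of 3.28 to 3.41, while the libraries with NMP peptides plus APV sit at Fos of 4.46 to 5.01 and Ppp1r10 of 3.51 to 3.55.

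The 5 partners did not pass the test in any of the 10 comparisons: limma called 0 of 50 differences, and 1 had an unadjusted p under 0.05. Over all genes 7.5% of differences had one. The outermost bounds of the 95% intervals were -0.27 and 0.26, or 0.83-fold and 1.20-fold. The called shares not yet given were 0% between PK-cleaved peptides and DMSO, 1.43% between NMP peptides without and with APV, 0.175% between bicuculline and NMP peptides, 0.533% between bicuculline and PK-cleaved peptides and 1.39% between NMP peptides plus APV and PK-cleaved peptides.

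Wdr82 and Tox4, whose proteins join PNUTS in the complex, overlapped between groups in all 10 comparisons. Wdr82 (chromosome 9, 106170925 to 106191706) read 5.85 and 5.72 in DMSO, 5.67, 5.80 and 5.61 with bicuculline, 5.64, 5.72 and 5.73 with NMP peptides, 5.63, 5.78 and 5.77 with PK-cleaved peptides and 5.85, 5.71 and 5.85 with NMP peptides plus APV. Its largest difference was -0.11 (SE 0.07, 95% interval -0.27 to 0.04) for bicuculline against NMP peptides plus APV. Tox4 (chromosome 14, 52279146 to 52295509) read 4.25 and 4.19 in DMSO, 4.16, 4.25 and 4.30 with bicuculline, 4.23, 4.26 and 4.25 with NMP peptides, 4.16, 4.17 and 4.27 with PK-cleaved peptides and 4.22, 4.22 and 4.29 with NMP peptides plus APV. Tox4 group means spanned 0.05, and no group of either gene stood apart from all others.

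Among the catalytic subunits, which carry the phosphatase activity, Ppp1cb was highest with NMP peptides plus APV. Ppp1cb (chromosome 5, 32458848 to 32493713) read 6.36, 6.34 and 6.35 there, 6.32 and 6.25 in DMSO, 6.23, 6.25 and 6.30 with bicuculline, 6.26, 6.28 and 6.20 with NMP peptides and 6.17, 6.24 and 6.19 with PK-cleaved peptides. The libraries with APV lay above all others, and the difference from PK-cleaved peptides, 0.15 (SE 0.05, 95% interval 0.03 to 0.26), did not pass limma's test (adjusted p = 0.205). There 20.2% of genes did not overlap. Against the libraries with APV, the share was 29.8% for DMSO, 25.6% for bicuculline and 21.8% for NMP peptides, so such separation was common. Against DMSO, PK-cleaved peptides also did not overlap for Ppp1cb, as for 11% of genes.

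Ppp1ca (chromosome 19, 4192174 to 4195419) read 7.12 and 7.05 in DMSO, 6.99, 7.11 and 7.01 with bicuculline, 7.01, 7.02 and 7.08 with NMP peptides, 7.05, 7.08 and 7.07 with PK-cleaved peptides and 6.99, 6.94 and 7.04 with NMP peptides plus APV. With APV it was below DMSO and PK-cleaved peptides without overlap, by differences that were not called, as 29.8% and 20.2% of all genes did not overlap there. Ppp1cc (chromosome 5, 122154967 to 122175273) read 5.71 and 5.78 in DMSO, 5.78, 5.63 and 5.77 with bicuculline, 5.80, 5.71 and 5.65 with NMP peptides, 5.72, 5.70 and 5.63 with PK-cleaved peptides and 5.75, 5.60 and 5.67 with NMP peptides plus APV, overlapping in all 10 comparisons.

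**Figure D3:**
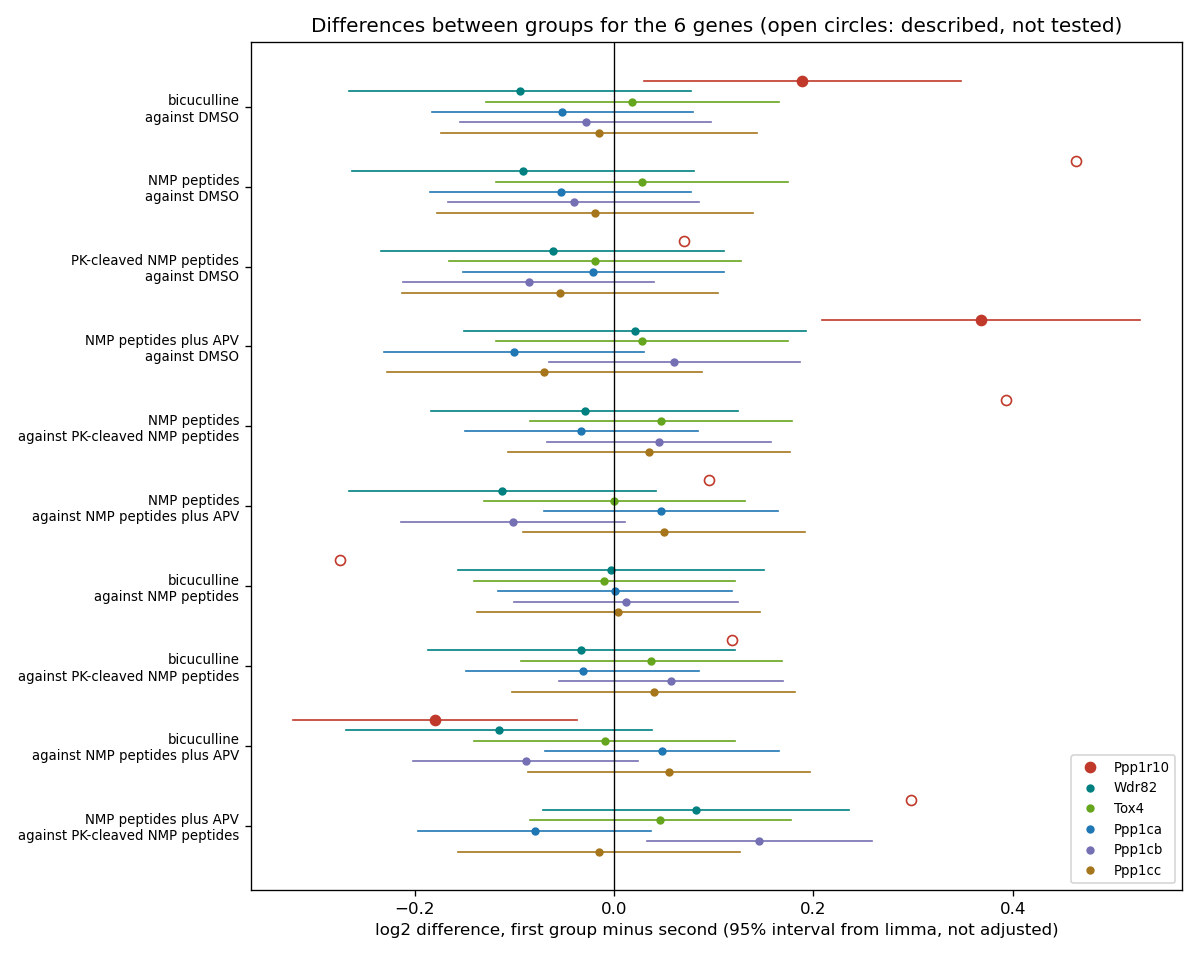
Log2 difference between groups, first minus second (horizontal axis), for the 6 genes in the 10 comparisons; filled points carry 95% intervals from limma, and open circles are Ppp1r10 values given as a description. The Ppp1r10 points reach 0.46, while the partners' intervals stay between -0.27 and 0.26.

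Set against all genes, the group means of Ppp1r10 spanned 0.46, a range exceeded by 6.30% of tested genes, while the median gene spanned 0.19. The partners spanned 0.11 (Wdr82), 0.05 (Tox4), 0.10 (Ppp1ca), 0.15 (Ppp1cb) and 0.07 (Ppp1cc), and between 66.9% and 98.6% of genes spanned more. The replicate SD of Ppp1r10 was 0.055 and that of the median gene 0.13. The partners had SDs of 0.081 (Wdr82), 0.049 (Tox4), 0.046 (Ppp1ca), 0.036 (Ppp1cb) and 0.069 (Ppp1cc), so tight placement within groups was not particular to Ppp1r10. These ranges and SDs include the libraries on which Ppp1r10 was chosen.

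Ppp1r10 was also the lowest of the 6 genes. On the antilog scale its mean level was 10.5, against 18.8 for Tox4, 52.2 for Ppp1cc, 53.3 for Wdr82, 77.0 for Ppp1cb and 132 for Ppp1ca. Levels were treated as per length, an assumption on which these comparisons between genes rest. Like totals of level times exon length in all libraries cannot test it, since the values are quantile normalised. Ppp1ca made up 49.0% to 51.7% of the summed catalytic level in the group means, Ppp1cb 28.4% to 31.4% and Ppp1cc 19.7% to 20.3%. Ppp1r10 as a percentage of that sum was 4.72 ± 0.09 (SD, n = 3) with NMP peptides and 4.43 ± 0.08 (SD, n = 3) with APV added. It was 3.89 ± 0.23 (SD, n = 3) with bicuculline, 3.60 ± 0.13 (SD, n = 3) with PK-cleaved peptides and 3.32 ± 0.15 (SD, n = 2) in DMSO.

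Overlapping genes limit some of these values, since whether counting used strand is not given in the sources used here. Ppp1r10 shares 85 of its 5680 words of 50 bases with other genes, and the opposite-strand gene Mrps18b, a mitochondrial ribosomal protein gene that lies 44 bases away, was not called in any comparison and differed by 0.01 (SE 0.10) between NMP peptides and PK-cleaved peptides. Tox4 overlaps Mettl3 by 1561 bases and Rab2b by 400 bases on the other strand, and 20.0% of its words are shared. Ppp1ca overlaps Rad9a by 225 bases, with 10.8% shared, and Ppp1cb shares 16.4%. Ppp1cc shares 1421 of 3553, most of them with its near-copy Ppp1ccb, so its level is the least certain of the 6.

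Genes of the processes in which the complex acts were read against all genes, of which 0% to 3.33% were called in a comparison and 7.5% of differences had an unadjusted p under 0.05. By limma, 0 of 27 genes of polymerase II termination and 3′ processing passed in each of the 10 comparisons, with an unadjusted p under 0.05 in 5.19% of the 270 differences. The same held for 0 of 20 pause release genes (4.5% of 200), 0 of 8 SET1 genes (6.25% of 80) and 0 of 8 polymerase tail phosphatases (10% of 80). At these background shares, lists of this size would hold few calls or none. In NMP peptides plus APV against DMSO the list medians were -0.08, -0.03, -0.02 and -0.05, and the median of all genes was -0.05. The furthest values there were -0.38 for Cpsf4, a subunit of the cleavage and polyadenylation factor, -0.29 to 0.26 in the pause release list, 0.27 for the SET1 methyltransferase Setd1b and -0.36 for the tail phosphatase Ctdp1 (adjusted p 0.32 to 0.49 for the 3 named). Between NMP peptides and PK-cleaved peptides the furthest was Clp1, a 3′ processing factor, at -0.39.

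Among other regulatory subunits that compete for PP1, 29 of 35 were tested, and 1 was called in 1 of the 10 comparisons, where 3.33% of all genes were called, so that 1 of 29 is near the background. An unadjusted p under 0.05 was found in 10% of the 290 differences, against 7.5% over all genes. Ppp1r15a, which directs PP1 to the translation factor eIF2α under stress, was 1.26 (SE 0.23) higher with bicuculline than with NMP peptides plus APV, or 2.39-fold (limma's adjusted p = 0.00689). It read 4.94, 4.92 and 5.30 with bicuculline and 3.78, 4.31 and 3.30 with NMP peptides plus APV. Its libraries read 4.61, 4.89 and 4.62 with NMP peptides, 4.68, 4.19 and 4.38 with PK-cleaved peptides and 4.50 and 3.69 in DMSO. By group mean, Ppp1r15a was highest with bicuculline and lowest with NMP peptides plus APV, where Ppp1r10 was second highest.

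The other catalytic subunits of the phosphoprotein phosphatase family (0 of 8 called, 11.2% of 80 differences with an unadjusted p under 0.05), the TOX paralogs (0 of 3, 0% of 30) and other proteins known to bind PNUTS (0 of 3, 16.7% of 30) had no call by limma in the 10 comparisons. Myc, a transcription factor that PNUTS binds, gave 0.38 (SE 0.08) with bicuculline against DMSO, with an adjusted p of 0.0855. Tox3, a TOX paralog, gave -0.33 (SE 0.23) there.

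**Figure D4:**
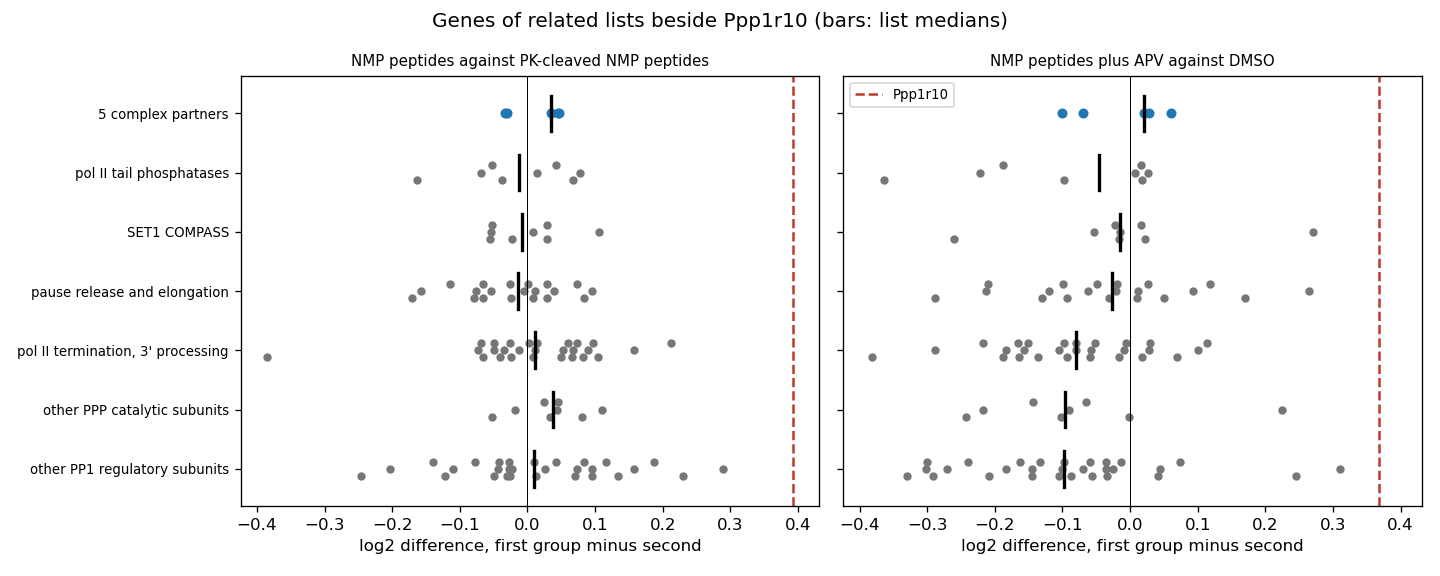
Log2 difference (horizontal axis) of each tested gene in 7 lists, 1 point per gene, for NMP peptides minus their PK-cleaved form (left) and NMP peptides plus APV against DMSO (right); black bars are list medians and the dashed line is Ppp1r10. Ppp1r10, at 0.39 and 0.37, lies to the right of the plotted genes of the lists in both panels, and in the left panel it was chosen for that difference.

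The 8 genes whose 14 library values most resembled those of Ppp1r10 by Pearson's r were Lrp4 (0.78), Spata2 (0.75), Golgb1 (0.73), Lamb2 (0.72), Gprasp2 (0.71), Trip4 (0.71), Abca1 (0.71) and Spop (0.70). Lrp4 is the agrin receptor, Lamb2 a laminin chain, Golgb1 a Golgi tether and Abca1 a cholesterol exporter. The 4 most opposed were Lyrm1 (-0.81), Atg4d (-0.79), Mrpl30 (-0.78) and Mtf2 (-0.77). Without the 2 libraries farthest from the median of Ppp1r10, the 8 gave r of 0.57 to 0.83 and the 4 gave -0.90 to -0.75. Among the partners r was 0.02 for Wdr82, 0.37 for Tox4, -0.49 for Ppp1ca, 0.34 for Ppp1cb and -0.08 for Ppp1cc, and without those 2 libraries it was 0.03, 0.24, -0.50, 0.36 and 0.06. These values describe 14 libraries of 5 groups, were picked as the extremes of all genes, and carry no p.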

How the data were processed

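Reads were paired-end and 100 bases long, per the labels' protocols. The authors deposited 1 table of log2 signals. All libraries have a median of 2.19 and a maximum of 12.0, which is what quantile normalisation produces, so a global change in RNA cannot be seen. Base 2 was checked by summing antilog level times exon length, and the check rests on the assumption that levels are per length and scaled alike. The submitters' processing notes name GRCm38.p6. The aligner and the counter are named in no source used here, and depth is unknown.

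Of 18128 features with a value, the lowest 40% by mean were dropped. For the 10877 others limma 3.58.1 (R 4.3.3) fitted 1 mean per group to all 14 libraries with a trended variance. The tests were two-sided, with Benjamini-Hochberg adjustment in each of 10 comparisons separately and a threshold of 0.05. The procedure was tested on simulated data.

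The members and lists were chosen with earlier results of these data known. Named genes are the 6 members, the called or furthest genes of each list, the 8 most and 4 least like Ppp1r10, and Fos and Npas4. Replicate numbers pair 2 groups where at least 3 pairs of libraries each correlate over 0.1 in their deviations from the group means. This held for NMP peptides with PK-cleaved peptides (0.51, 0.50 and 0.61), from the data and not the labels. Alternatives were no filter, dropping 60%, median centring, the replicate number as a block, a fit of the compared groups alone and leaving out each library in turn. Leaving out 4 libraries high in Gfap and a block in the paired groups alone were added after seeing the data. Positions and promoter windows are from RefSeq, and overlaps from GENCODE.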

Additional observations from a re-analysis of the deposited data

How the results depend on the processing

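Filters, a fit of the compared groups alone and leaving out a library outside the comparison cannot change a difference of group means. Under every alternative run Ppp1r10 kept its direction in all 10 comparisons, down to 0.00325 for PK-cleaved peptides against DMSO without 1 library. Its rise with NMP peptides plus APV against DMSO lost its call with a replicate block (0.37, adjusted p = 0.095), with only the compared groups (0.37) and on leaving out 4 libraries high in Gfap (0.44), and in 11 of 14 fits without 1 library (0.301 to 0.435). The cause was not tested. Whether replicate numbers pair those groups could not be decided, since they share 2 numbers (r = 0.305 and 0.349), and the replicate block changed no other call among the members. The partners had 0 calls in every setting. Differences of partners near 0 changed sign. Leaving out the libraries high in Gfap gave 0.0116 for Ppp1cb (bicuculline, DMSO), 0.0159 for Ppp1cb (NMP peptides, DMSO) and -0.00092 for Tox4 (NMP peptides, the same plus APV). Median centring gave 0.00501 for Ppp1cc (NMP peptides, DMSO) and -0.0103 for Tox4 (NMP peptides, the same plus APV). Without 1 library, bicuculline minus DMSO ran from -0.0113 to 0.0549 for Tox4, from -0.0626 to 0.0062 for Ppp1cb and from -0.0498 to 0.0348 for Ppp1cc. NMP peptides minus DMSO ran from -6e-05 to 0.0567 for Tox4 and from -0.0576 to 0.0159 for Ppp1cc. Ppp1cc ran from -0.00315 to 0.0688 between intact and PK-cleaved peptides, and Tox4 from -0.0121 to 0.0247 between NMP peptides without and with APV. With NMP peptides plus APV against DMSO, 19 genes were called higher and 49 lower, against 3 and 2 with only the compared groups. Depth behind single values is unknown, which limits the precision of low genes.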
